A study of Mus musculus with 9 samples.

Results

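The junction genes of the blood-testis barrier were followed across whole testes of WT, Kpna6ΔIBB/ΔIBB and Kpna6-/- mice. The 8 genes were taken by name from 32035 genes in the deposited tables, by a rule that uses no measured value, although earlier results of these data were known when they were chosen. They are the claudin genes Cldn3, Cldn5 and Cldn11, the other tight junction genes Ocln, Tjp1 and F11r, the gap junction gene Gja1 and the cadherin gene Cdh2. RNAseq was performed on 3 testes of each genotype. All donors were male C57Bl6/N mice aged 15 weeks. Kpna6 encodes importin α7, an adaptor that carries cargo proteins into the nucleus. In Kpna6ΔIBB/ΔIBB mice exon 2 is removed, which leaves a truncated protein without the domain that binds importin β. In Kpna6-/- mice a gene trap lies in intron 1, which removes the protein from most tissues. The labels give a complete loss of the protein for this line. The study, however, describes full-length protein in its germ cells, from an alternative first exon, and no protein in its Sertoli cells. Kpna6-/- is thus a limited model of loss in the testis, which covers Sertoli cells and not germ cells.

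The blood-testis barrier is formed by neighbouring Sertoli cells near the base of the seminiferous tubule. It divides the epithelium into a basal compartment with spermatogonia and an adluminal compartment with later germ cells. Tight junctions seal it, and adherens, gap and desmosome junctions lie beside them at the same contacts. Claudins and occludin span the membrane, and scaffold proteins tie them to actin. Preleptotene spermatocytes cross the barrier at a fixed stage of the cycle, at which new junctions are built beneath them while those above are taken apart.

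Cldn3 and Cldn11 encode the claudins that are most often studied in this barrier, and their promoters are printed because both genes changed in Kpna6ΔIBB/ΔIBB testes, in opposite directions. Each sequence is the plus-strand window of 300 bases in GRCm38, from 250 bases before to 50 bases after the RefSeq start of the gene. Capitals mark the motifs GGGCGG and CCAAT on either strand.

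Cldn3 (chr5:134985964-134986263, +): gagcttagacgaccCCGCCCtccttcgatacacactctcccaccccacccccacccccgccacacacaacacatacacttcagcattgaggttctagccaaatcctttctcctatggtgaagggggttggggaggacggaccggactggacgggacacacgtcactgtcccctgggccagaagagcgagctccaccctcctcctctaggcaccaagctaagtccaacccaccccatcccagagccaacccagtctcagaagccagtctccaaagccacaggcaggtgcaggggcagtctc

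Cldn11 (chr3:31149670-31149969, +): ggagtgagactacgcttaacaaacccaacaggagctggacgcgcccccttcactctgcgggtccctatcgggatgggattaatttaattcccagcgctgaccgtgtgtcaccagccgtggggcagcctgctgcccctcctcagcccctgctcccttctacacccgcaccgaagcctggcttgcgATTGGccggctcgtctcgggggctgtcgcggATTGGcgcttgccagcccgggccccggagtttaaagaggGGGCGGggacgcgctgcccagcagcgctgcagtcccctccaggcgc

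The RefSeq table held 8 such windows for 7 of the 8 genes. The motif GGGCGG (the core of a GC box) occurred once in the Cldn3 window and once in the Cldn11 window. CCAAT occurred 2 times in the Cldn11 window and 0 times in the Cldn3 window. The motifs AGAACA and TATAAA were found in none of the 8 windows. Among all 32851 windows of this kind, 35.7% held GGGCGG, 37.4% CCAAT, 19.0% AGAACA and 13.6% TATAAA. The Cldn3 window had a GC content of 60.7% and 9 CpG pairs, whereas the Cldn11 window had 66.3% and 24, against medians of 52.7% and 7 over all windows.

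Between 24859751 and 31484692 estimated counts per sample fell on genes. Kpna6 itself was at 98.3, 163 and 176 TPM (a level scaled by transcript length and to the same total in every library) in WT testes, at 31.96, 34.2 and 34.8 TPM in Kpna6ΔIBB/ΔIBB testes and at 134, 137 and 141 TPM in Kpna6-/- testes. The Kpna6-/- values lay within the WT range, so this level does not check the Kpna6-/- label. The transcript Kpna6-202, which starts at the 5′ end of the gene, was at 16.9 to 23.4 TPM in WT testes. It was at 11.3 to 11.98 TPM in Kpna6-/- and at 14.5 to 15.3 TPM in Kpna6ΔIBB/ΔIBB testes, both without overlap with WT. A level below WT was thus not particular to Kpna6-/- and does not check that label by itself. The testis label was met by the markers of its cells, since all 12 Sertoli cell markers and all 8 spermatid markers were detected. 1 library stood apart in epididymis transcripts. The 13 epididymis and rete testis markers summed to 215 TPM in replicate 3 of Kpna6ΔIBB/ΔIBB and to between 42.1 and 54.6 TPM in the other samples. Results for the junction genes are given with and without that library where it changed a call.

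In Kpna6ΔIBB/ΔIBB against WT testes, 5 of the 8 junction genes passed edgeR's quasi-likelihood test at an adjusted P-value below 0.05. Cldn11, Ocln and F11r were higher, and Cldn3 and Tjp1 were lower. Over all 18797 genes tested, 36.6% passed, with 17.7% higher and 18.9% lower. In TPM, 5 of the 8 genes lay higher without overlap and 1 lower, where 47.8% of all genes did not overlap, with 34.3% higher and 13.6% lower. Both counts of members stand against backgrounds of that size, as do the counts of the other gene lists in this comparison. The median log2 fold change of the 8 genes was 0.10, beside 0.01 for all genes tested. When counts were scaled by library size alone, the median of all genes moved to 0.11, and 5416 genes were higher and 2326 lower in place of 3327 and 3547. A call near the threshold depended on that choice, as stated for Tjp1 and Gja1.

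**Figure D1:**
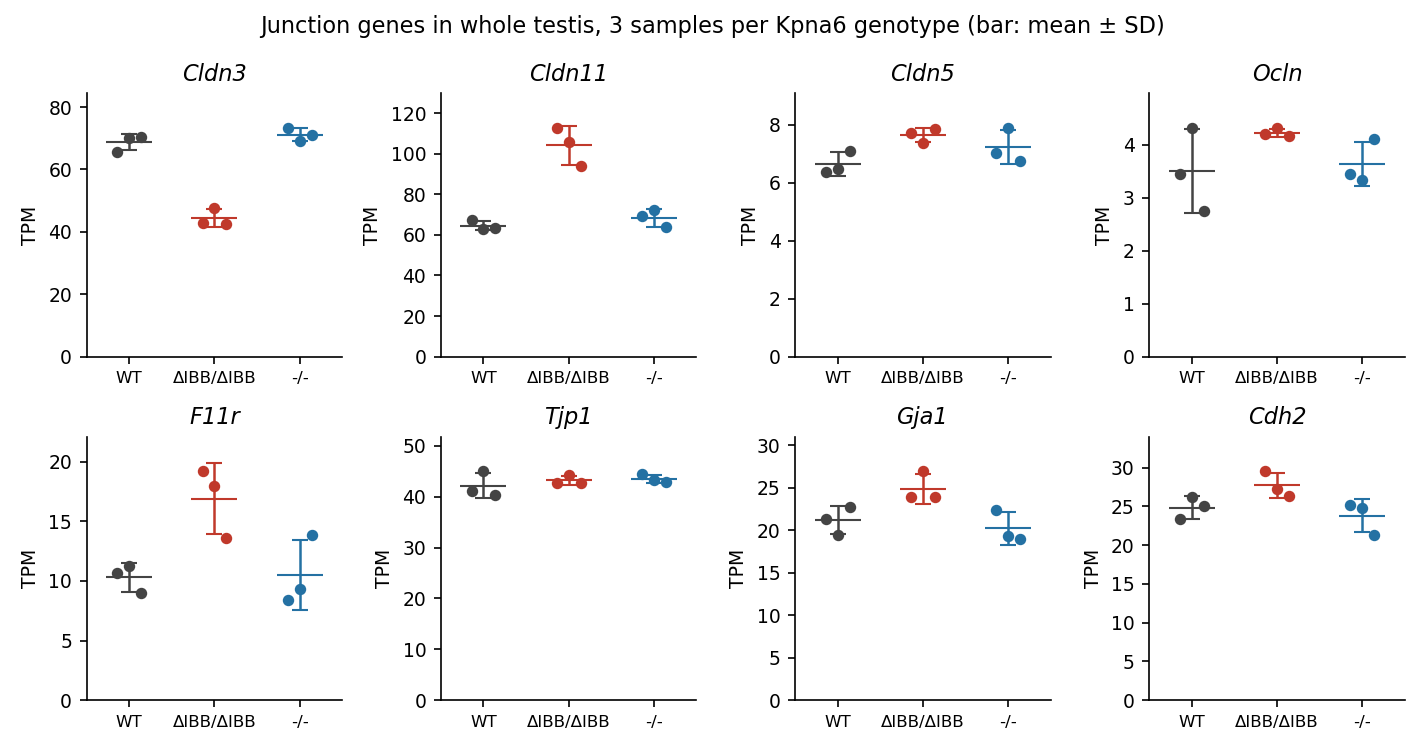
Gene level in TPM (vertical axes, from 0) of the 8 junction genes in each of the 9 testes, by Kpna6 genotype, with each group's mean ± SD (n = 3) as a bar. Cldn3 is lower and Cldn11 and F11r are higher in every Kpna6ΔIBB/ΔIBB sample than in every WT sample. The Kpna6-/- samples lie near the WT samples, except replicate 3 for F11r at 13.8 TPM.

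Cldn3 fell in Kpna6ΔIBB/ΔIBB testes. This gene, on chromosome 5 from 134986214 to 134987472, has 1 exon and 1 listed transcript, and its protein is a claudin of newly assembled barrier junctions. The level was 65.7, 70.0 and 70.5 TPM in WT, 42.9, 47.6 and 42.6 TPM in Kpna6ΔIBB/ΔIBB and 73.3, 69.1 and 71.1 TPM in Kpna6-/- testes. All 3 Kpna6ΔIBB/ΔIBB samples lay below all 6 others, and the WT and Kpna6-/- ranges overlapped. The log2 fold change against WT was -0.76 ± 0.06 (SE, 95% interval -0.88 to -0.63), which is a level of 0.592 times WT (adjusted P = 1.39e-05). The counts behind it were 1561 to 1767 in WT and 840 to 1132 in Kpna6ΔIBB/ΔIBB samples. Without replicate 3 of Kpna6ΔIBB/ΔIBB the log2 fold change was -0.73, so the change did not rest on the library with epididymis transcripts.

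The spermatid markers moved the same way as Cldn3. All 8 of them (Acrv1, Odf1, Prm1, Prm2, Spaca1, Tnp1, Tnp2 and Tssk2) were lower in Kpna6ΔIBB/ΔIBB than in WT testes, with a median log2 fold change of -0.40. Their summed level was 53011 to 61039.6 TPM in Kpna6ΔIBB/ΔIBB and 63344 to 73410.5 TPM in WT samples, and none was at 0. The part of these cells in the Cldn3 result was not tested. In bulk tissue, fewer cells of a type and less RNA per cell cannot be told apart.

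Cldn11 rose in the same testes. The gene lies on chromosome 3 from 31149920 to 31164324 and encodes a claudin made by Sertoli cells that is known to be required for a closed barrier. The level was 67.2, 63.1 and 63.5 TPM in WT, 113, 106 and 93.9 TPM in Kpna6ΔIBB/ΔIBB and 69.3, 72.2 and 63.7 TPM in Kpna6-/- testes. Every Kpna6ΔIBB/ΔIBB sample exceeded every other sample. The log2 fold change against WT was 0.56 ± 0.06 (SE, 95% interval 0.42 to 0.70), or 1.48 times WT (adjusted P = 7.81e-05).

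All 12 Sertoli cell markers (Aard, Amhr2, Clu, Dhh, Fshr, Gata1, Inhbb, Rhox5, Sox8, Sox9, Trf and Wt1) rose together with Cldn11, with a median log2 fold change of 0.59. Their summed level was 921 to 1004 TPM in WT, 1506 to 1785 TPM in Kpna6ΔIBB/ΔIBB and 1115.1 to 1194 TPM in Kpna6-/- samples. No Sertoli marker was at 0 in any sample. Of the 5 peritubular cell markers, 4 also rose (Acta2, Des, Myh11 and Tagln), with a summed level of 55.6 to 60.6 TPM in WT and 89.0 to 97.7 TPM in Kpna6ΔIBB/ΔIBB samples. The part of these cells in the Cldn11 result was not tested beyond the ratios to Sertoli cell markers given later. The study measured Cldn3, Cldn11, Wt1, clusterin, Gata1 and Rhox5 in adult testes by real-time PCR relative to Gapdh. It reported only Cldn3 as markedly changed, lower in Kpna6ΔIBB/ΔIBB, and no significant difference for most genes measured. It also counted fewer Sertoli cells in adult testes of both mutant lines.

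The opposite changes of the 2 claudins altered their ratio within each testis, a value that does not depend on library scaling. The Cldn3 to Cldn11 ratio of TPM values was 0.979, 1.11 and 1.11 in WT, 0.381, 0.4502 and 0.453 in Kpna6ΔIBB/ΔIBB and 1.06, 0.957 and 1.12 in Kpna6-/- testes. WT and Kpna6-/- testes thus held similar amounts of both transcripts, and in Kpna6ΔIBB/ΔIBB testes Cldn11 was the more abundant in all 3 samples. The log2 ratio differed between the 3 genotypes (exact permutation test over 1680 splits, P = 0.025, and 0.025 after adjustment over the 2 ratios computed). Between Kpna6ΔIBB/ΔIBB and WT testes it differed by -1.32 (two-sided exact permutation P = 0.1, the smallest value that 3 against 3 samples allow).

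The Cldn3 to Cldn5 ratio showed a change in the same direction. It was 10.3, 10.8 and 9.93 in WT, 5.56, 6.45 and 5.42 in Kpna6ΔIBB/ΔIBB and 10.4, 8.75 and 10.6 in Kpna6-/- testes. The Kpna6ΔIBB/ΔIBB samples were again below all others (exact permutation test over the 3 genotypes, P = 0.025, adjusted 0.025). Cldn3 is the numerator of both ratios, so they are not independent. Both are built from the TPM values of the single genes, so their P-values restate differences in those values and are no further evidence.

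**Figure D2:**
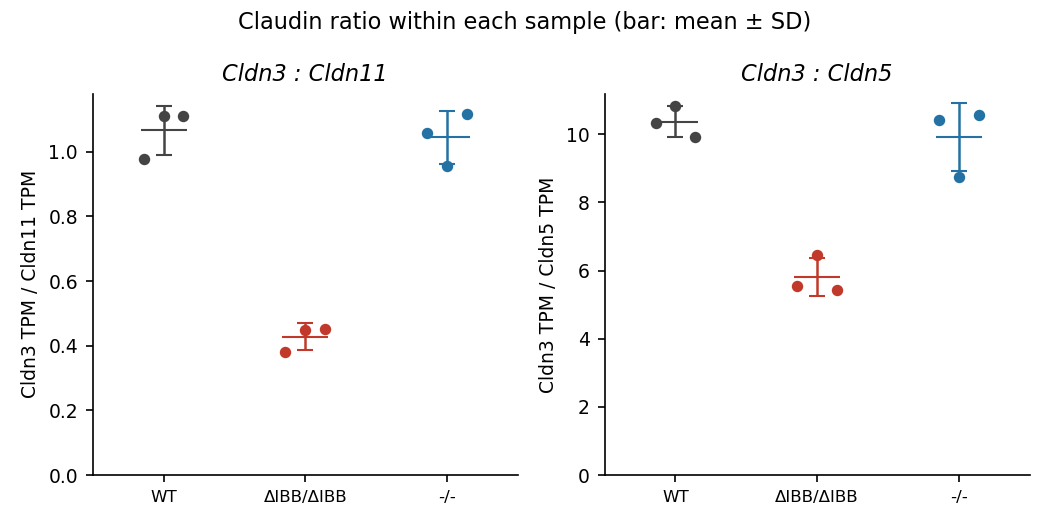
TPM of Cldn3 divided by TPM of Cldn11 (left) or Cldn5 (right), both axes from 0, in each testis by Kpna6 genotype, with the mean ± SD (n = 3) as a bar. The 3 Kpna6ΔIBB/ΔIBB samples lie at 0.381 to 0.453 and 5.42 to 6.45, below all WT and Kpna6-/- samples in both panels.

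Cldn5, on chromosome 16 from 18776847 to 18778262, encodes a claudin of Sertoli cells and of endothelial cells. Its level was 6.36, 6.46 and 7.10 TPM in WT, 7.72, 7.38 and 7.85 TPM in Kpna6ΔIBB/ΔIBB and 7.04, 7.89 and 6.74 TPM in Kpna6-/- testes. The Kpna6ΔIBB/ΔIBB samples lay above the WT samples on this scale, as did 34.3% of all genes tested. On TMM-normalized counts the log2 fold change was 0.08 ± 0.10 (SE, 95% interval -0.15 to 0.31, adjusted P = 0.575), so the gene did not pass the test. Of 10 endothelial markers, 1 was higher (Eng) and 3 were lower (Flt1, Vwf and Egfl7), of which Flt1 kept its call under 3 of 16 alternatives, and their summed level was 50.5 to 53.1 TPM in WT and 45.0 to 53.3 TPM in Kpna6ΔIBB/ΔIBB samples.

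Among the 30 other claudin genes of the annotation, 20 passed the expression filter in Kpna6ΔIBB/ΔIBB against WT testes, 1 was higher and 0 were lower by edgeR, with a median log2 fold change of -0.13. The one called was Cldn4, named here after its values were seen. Its level was 0.126 TPM in WT and 0.414 TPM in Kpna6ΔIBB/ΔIBB testes (log2 fold change 1.57 ± 0.43, SE, adjusted P = 0.0145). Cldn7 was at 1.81 TPM in WT, 5.103 TPM in Kpna6ΔIBB/ΔIBB and 4.85 TPM in Kpna6-/- testes and missed the threshold (log2 fold change 0.83 ± 0.31, adjusted P = 0.0553), but it passed under 8 of 16 alternatives, among them limma on log2(TPM + 1) (1.13, adjusted P = 0.00471). Its counts were low, at 23, 23 and 29 in WT, 33, 35 and 70 in Kpna6ΔIBB/ΔIBB and 32, 42 and 34 in Kpna6-/- testes. They differed less between genotypes than its TPM values. With replicate 3 of Kpna6ΔIBB/ΔIBB left out, the log2 fold change of Cldn7 was 0.46 (adjusted P = 0.259), and without replicate 2 it was 1.02 and passed (adjusted P = 0.0370).

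After Cldn3 and Cldn11, the most abundant claudin transcripts came from the Cldn34 family, at 24.9 TPM for Cldn34c4, 19.7 for Cldn34d and 18.3 for Cldn34b4 in WT testes. None of the 10 Cldn34 genes passed the test against WT, but Cldn34a and Cldn34c1 each passed as lower under 1 of 16 alternatives. Cldn34c1 was also called lower in Kpna6ΔIBB/ΔIBB than in Kpna6-/- testes by edgeR. Cldn12 was at 8.72 TPM in WT and 9.89 TPM in Kpna6ΔIBB/ΔIBB testes and did not pass either (0.11, adjusted P = 0.397), nor did Cldn20, Cldn23 and Cldn24, each below 2 TPM. Several of them are near copies of each other (Cldn34b1 and Cldn34b2 share 1079 bases at 97.0% identity), so their single levels are uncertain. Over all 33 claudin genes, Cldn3 held 22.3% to 25.4% of the summed claudin TPM in WT and 13.6% to 15.4% in Kpna6ΔIBB/ΔIBB samples. Cldn11 held 20.9% to 22.8% and 29.9% to 36.3%. The total was 276 to 304 TPM in WT and 309 to 314 TPM in Kpna6ΔIBB/ΔIBB samples.

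**Figure D3:**
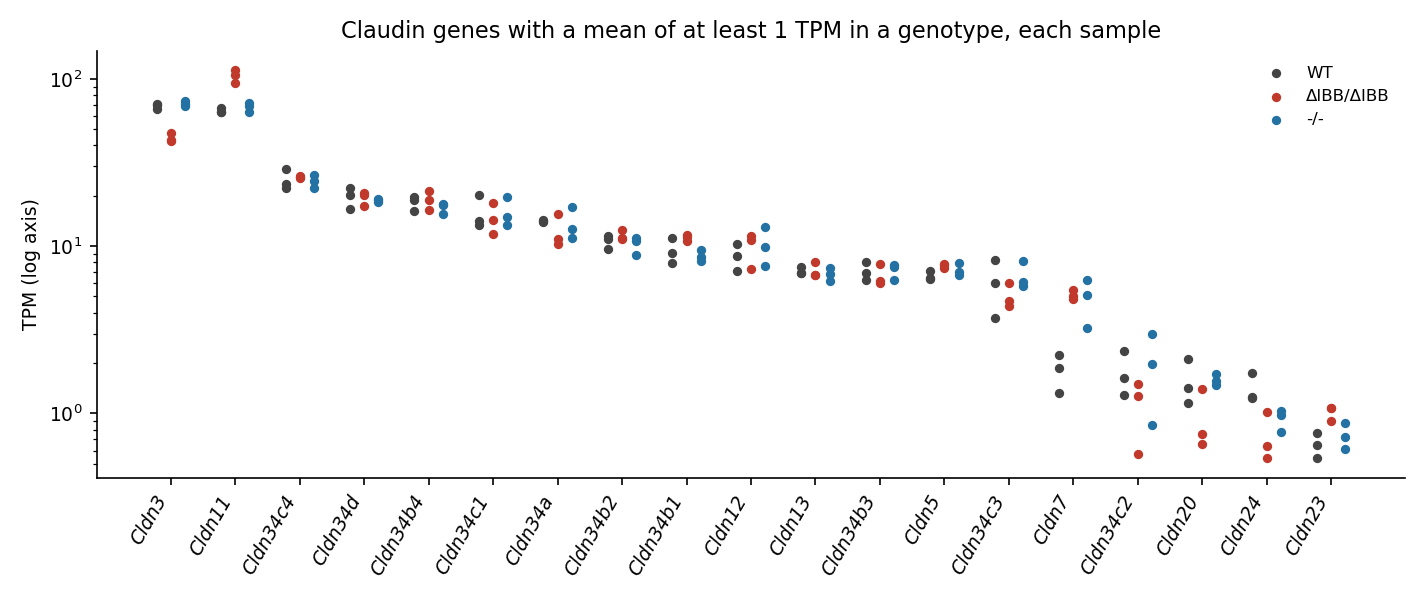
Gene level in TPM (log axis) of every claudin gene that reached a genotype mean of 1 TPM, ordered by WT mean, with 1 point per testis and colours for genotypes. Cldn3 and Cldn11 lead the family, and the Kpna6ΔIBB/ΔIBB points lie below the others for Cldn3 and above them for Cldn11.

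F11r and Ocln, 2 further genes of the tight junction membrane, were higher in Kpna6ΔIBB/ΔIBB than in WT testes. F11r lies on chromosome 1 from 171437535 to 171464603 and encodes the junctional adhesion molecule JAM-A. Its level was 10.6, 11.3 and 8.95 TPM in WT, 19.2, 17.9 and 13.6 TPM in Kpna6ΔIBB/ΔIBB and 8.37, 9.33 and 13.8 TPM in Kpna6-/- testes. No Kpna6ΔIBB/ΔIBB sample overlapped with WT, whereas replicate 3 of Kpna6-/- reached 13.8 TPM, above the lowest Kpna6ΔIBB/ΔIBB value. In that Kpna6-/- sample, 39.0% of the F11r level was assigned to F11r-203, a retained-intron transcript of 678 bases, and the protein-coding F11r-201 was at 8.44 TPM. F11r-201 was at 7.78 to 8.50 TPM in WT, 11.9 to 14.2 TPM in Kpna6ΔIBB/ΔIBB and 8.08 to 8.90 TPM in Kpna6-/- testes, with the Kpna6ΔIBB/ΔIBB samples above all others. The log2 fold change of the gene against WT was 0.61 ± 0.08 (SE, 95% interval 0.42 to 0.79, adjusted P = 0.000286), or 1.52 times WT.

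Ocln, on chromosome 13 from 100496507 to 100552718, encodes occludin, a membrane protein of the tight junction strand. It was the lowest of the 8 genes, at 3.45, 4.31 and 2.74 TPM in WT, 4.19, 4.31 and 4.17 TPM in Kpna6ΔIBB/ΔIBB and 3.44, 3.34 and 4.10 TPM in Kpna6-/- testes. WT and Kpna6ΔIBB/ΔIBB samples overlapped in TPM. On counts the log2 fold change was 0.40 ± 0.10 (SE, adjusted P = 0.0113), but it was 0.15 with counts scaled for transcript length (adjusted P = 0.543). The files list 5 transcripts of Ocln, and the share of Ocln-201 in the gene's TPM was 36.4% ± 2.63 (SD, n = 3) in WT, 62.6% ± 13.2 (SD, n = 3) in Kpna6ΔIBB/ΔIBB and 40.0% ± 10.1 (SD, n = 3) in Kpna6-/- testes. That share did not pass over the 3 genotypes (exact permutation P = 0.0643, adjusted over 4 leading transcripts 0.143).

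Tjp1 encodes ZO-1, the scaffold that links claudins and occludin to actin, and lies on chromosome 7 from 65296165 to 65527781. Its level was 41.1, 45.0 and 40.4 TPM in WT, 42.6, 44.3 and 42.7 TPM in Kpna6ΔIBB/ΔIBB and 44.4, 43.3 and 42.8 TPM in Kpna6-/- testes. The 3 genotypes overlapped. On TMM-normalized counts the gene passed with a small decrease (log2 fold change -0.16 ± 0.05, SE, adjusted P = 0.0248), which was -0.06 with library size scaling (adjusted P = 0.314) and 0.04 on log2(TPM + 1) values with limma (adjusted P = 0.688). It was also lost without replicate 1 or 2 of WT or replicate 1 or 3 of Kpna6ΔIBB/ΔIBB (adjusted P = 0.0530, 0.0817, 0.0883 and 0.0675). A direction for Tjp1 can thus not be given independently of the scale.

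The 2 scales weigh the transcripts of Tjp1 differently. Tjp1-203, a processed transcript of 699 bases, carried 39.8% of the gene's TPM but 4.98% of its counts in WT testes. Its TPM share was 33.1% ± 3.73 (SD, n = 3) in Kpna6ΔIBB/ΔIBB and 37.5% ± 3.01 (SD, n = 3) in Kpna6-/- testes (exact permutation P = 0.0714, adjusted 0.143). Tjp1-202 and Tjp1-201, the long coding transcripts, were at 10.8 and 8.54 TPM in WT and at 11.2 and 7.45 TPM in Kpna6ΔIBB/ΔIBB testes.

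Gja1 encodes connexin 43, the main gap junction protein of Sertoli cells, and lies on chromosome 10 from 56377330 to 56402513. Its level was 21.3, 19.5 and 22.8 TPM in WT, 23.9, 26.9 and 23.9 TPM in Kpna6ΔIBB/ΔIBB and 22.4, 19.3 and 19.0 TPM in Kpna6-/- testes. The Kpna6ΔIBB/ΔIBB samples lay above all others in TPM. On TMM-normalized counts the log2 fold change against WT was 0.11 ± 0.06 (SE, 95% interval -0.03 to 0.25, adjusted P = 0.203), and with library size scaling it was 0.21 (adjusted P = 0.0266), which passed.

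Of the 19 other connexin genes 12 were tested, and 3 were higher and 0 lower in Kpna6ΔIBB/ΔIBB testes, with a median log2 fold change of 0.20. Gja6, a gene on the X chromosome in the mouse, was at 5.17 TPM in WT and 9.15 TPM in Kpna6ΔIBB/ΔIBB testes (log2 fold change 0.70 ± 0.11, SE, adjusted P = 0.00089). Gja5 and Gjb2, the other two, were at 1.12 and 0.104 TPM in WT and at 1.97 and 0.299 TPM in Kpna6ΔIBB/ΔIBB testes, and Gjb2 was named after its values were seen. Gja5 shares 856 bases at 99.4% identity with a transcript of Zfp697, so its level is uncertain. Gjc1, the connexin 45 gene, was at 11.8 and 15.3 TPM and missed the threshold (adjusted P = 0.0555). Gjd3 was at 9.16 TPM in both genotypes, and Gja4 and Gjd4, between 1.14 and 1.46 TPM, did not pass.

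Cdh2, the gene of N-cadherin in the adherens junctions between Sertoli cells and between Sertoli and germ cells, lies on chromosome 18 from 16588877 to 16809246. Its level was 23.3, 26.2 and 25.01 TPM in WT, 29.5, 27.2 and 26.3 TPM in Kpna6ΔIBB/ΔIBB and 25.2, 24.8 and 21.3 TPM in Kpna6-/- testes. The Kpna6ΔIBB/ΔIBB samples were just above the others in TPM. On counts the log2 fold change against WT was 0.03 ± 0.06 (SE, 95% interval -0.11 to 0.17, adjusted P = 0.763), and it turned to -0.01 without replicate 1 of WT and to -0.02 without replicate 1 of Kpna6ΔIBB/ΔIBB. The 12 other cadherin and catenin genes included 4 that rose and 1 that fell, with a median log2 fold change of 0.19. Ctnna1, the gene of α-catenin, rose from 13.5 to 24.8 TPM (log2 fold change 0.75 ± 0.06, SE). Ctnnb1, the gene of β-catenin, rose from 53.8 to 70.0 TPM (0.27 ± 0.04), and Vcl, the gene of vinculin, from 13.7 to 17.8 TPM (0.25 ± 0.06). Ctnnd1 was the fourth, and Jup, the gene of plakoglobin, fell from 77.7 to 65.2 TPM (-0.29 ± 0.07). In Kpna6-/- against WT testes Ctnna1 was also higher, at 16.3 TPM (log2 fold change 0.28 ± 0.05, SE, edgeR, adjusted P = 0.0214). It was the only 1 of these 12 genes that passed there, where 1.60% of all genes tested did.

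In Kpna6-/- against WT testes, 0 of the 8 junction genes passed edgeR's test, where 1.60% of 18681 genes did (0.889% higher and 0.712% lower). In TPM, 0 of the 8 lay apart from WT, where 7.67% of all genes lay higher and 10.2% lower without overlap (17.8% in all). None of the 8 had an unadjusted P-value below 0.05 in edgeR, and DESeq2 and limma also called 0. The log2 fold changes lay between -0.07 (Cdh2) and 0.13 (Cldn5), with adjusted P-values of 0.467 to 0.764. For Cldn3 the value was 0.06 (95% interval -0.05 to 0.17), and for Cldn11 it was 0.09 (95% interval -0.02 to 0.21). These intervals leave out changes of the size seen in Kpna6ΔIBB/ΔIBB testes for both genes. For Ocln the interval reached 0.36, close to the Kpna6ΔIBB/ΔIBB value of 0.40. Of the Sertoli cell markers, 3 of 12 were higher in Kpna6-/- testes (Aard, Amhr2 and Clu), with a median log2 fold change of 0.24.

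The mutant lines were also compared directly, with 30.3% of 18752 genes called (13.5% higher and 16.8% lower). Cldn3 was lower in Kpna6ΔIBB/ΔIBB than in Kpna6-/- testes (log2 fold change -0.83 ± 0.05, SE, adjusted P = 1.82e-06). Cldn11 (0.46 ± 0.06, adjusted P = 0.000166) and F11r (0.52 ± 0.09, adjusted P = 0.000859) were higher. Ocln passed narrowly (0.26 ± 0.09, adjusted P = 0.0394), and the call was lost when any 1 of the 6 samples was left out (adjusted P of 0.0544 to 0.105). The other four genes did not pass, and Tjp1 was nearest (-0.11 ± 0.04, adjusted P = 0.0581). With library size scaling, Gja1 and Cdh2 passed as higher in this comparison (0.26 and 0.18), and over all genes 4931 were higher and 2016 lower in place of 2523 and 3150. In TPM, 4 of the 8 genes (Cldn11, Ocln, Gja1 and Cdh2) lay higher without overlap and Cldn3 lower, beside 36.0% and 10.9% of all genes (47.0% in all). The comparisons share their samples, so the values of one do not support those of another.

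**Figure D4:**
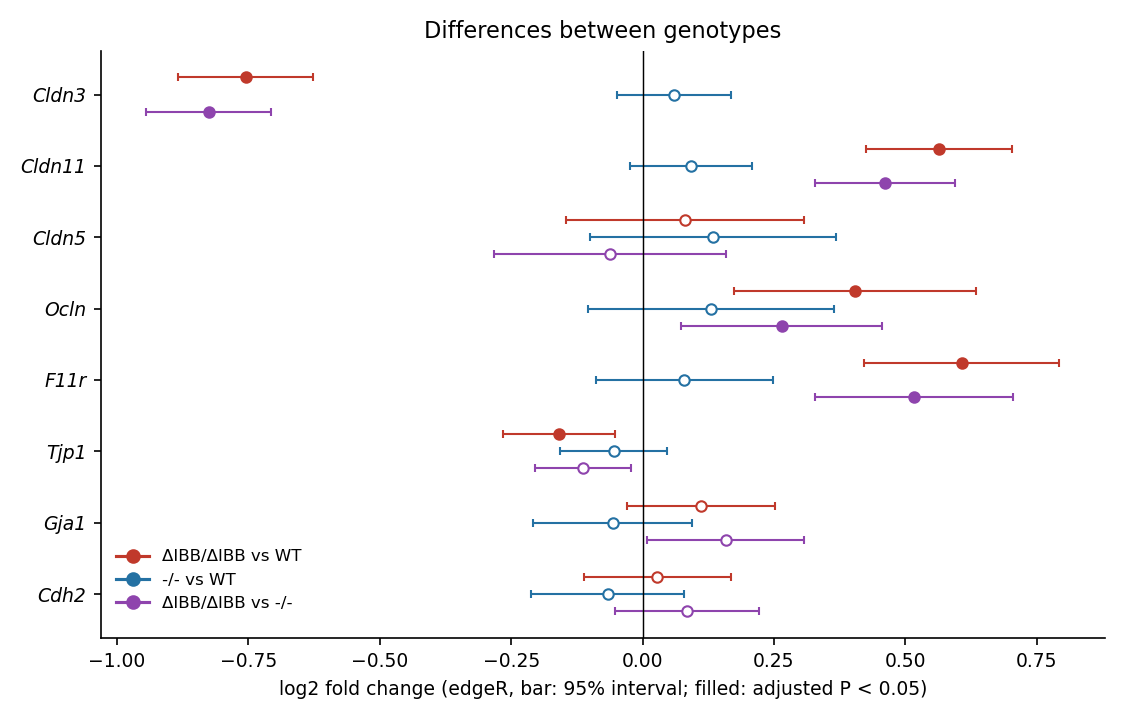
Log2 fold change (horizontal axis) of each junction gene in the 3 comparisons from edgeR, with the 95% interval as a bar and filled points for adjusted P-values below 0.05. Cldn3 lies at -0.76 and -0.83 in the comparisons with Kpna6ΔIBB/ΔIBB and at 0.06 in Kpna6-/- against WT, while Cldn11 and F11r lie to the right of 0 in both comparisons with Kpna6ΔIBB/ΔIBB.

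Because most of these genes are active in Sertoli cells, each was also expressed relative to the 12 Sertoli cell markers, as log2(TPM + 1) minus the mean of the same value over the markers. That marker mean was 0.73 higher in Kpna6ΔIBB/ΔIBB than in WT testes and 0.20 higher in Kpna6-/- testes, so a gene with an unchanged TPM moves down by the same amounts. On this scale Cldn3 was at 1.68 ± 0.12 (SD, n = 3) in WT, 0.33 ± 0.13 in Kpna6ΔIBB/ΔIBB and 1.53 ± 0.07 in Kpna6-/- testes (exact permutation test over the 3 genotypes, P = 0.00714, adjusted over the 8 genes 0.0143). Cldn11 was at 1.59 ± 0.03, 1.54 ± 0.06 and 1.47 ± 0.04 (exact permutation P = 0.0464, adjusted 0.0612), so that its Kpna6ΔIBB/ΔIBB values differed from WT by -0.05 in the means. F11r had a difference of -0.08 between Kpna6ΔIBB/ΔIBB and WT, and it did not pass over the 3 genotypes (exact permutation P = 0.668). The differences between Kpna6ΔIBB/ΔIBB and WT testes were -0.70 for Tjp1, -0.58 for Cdh2, -0.55 for Cldn5 and -0.51 for Gja1, each with an adjusted exact permutation P of at most 0.0171 over the 3 genotypes. Each of these differences lies within the rise of 0.73 in the marker mean. Their P-values therefore do not show a decrease of the genes themselves. For Ocln the difference was -0.50, and the gene did not pass over the 3 genotypes (adjusted exact permutation P = 0.0612). For Cldn3 the difference was -1.35, beyond those of the other 7 genes and beyond the rise of 0.73, which is part of it. The P-value of Cldn3 on this scale thus covers that rise together with the fall in its TPM.

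**Figure D5:**
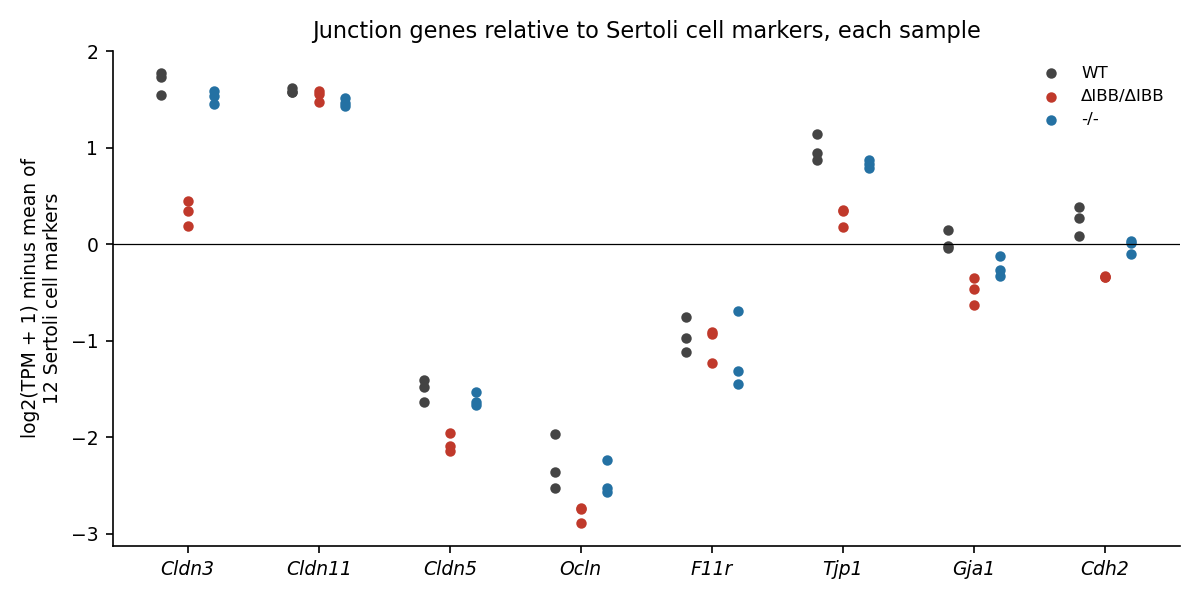
Level of each junction gene relative to 12 Sertoli cell markers (vertical axis, log2(TPM + 1) minus the marker mean), with 1 point per testis and colours for genotypes. Cldn3 drops from a mean of 1.68 in WT to 0.33 in Kpna6ΔIBB/ΔIBB testes, while Cldn11 stays between means of 1.47 and 1.59 in all genotypes.

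The order of the 8 levels differed between genotypes at its head. In WT testes the means ran from Cldn3 (68.7 TPM) and Cldn11 (64.6 TPM), whose ranges overlapped, over Tjp1 (42.2 TPM), Cdh2 (24.8 TPM), Gja1 (21.2 TPM), F11r (10.3 TPM) and Cldn5 (6.64 TPM) to Ocln (3.5002 TPM), with no overlap between the other neighbours. In Kpna6ΔIBB/ΔIBB testes Cldn11 stood first (104 TPM), and Cldn3 (44.4 TPM) overlapped with Tjp1 (43.2 TPM), as Cdh2 (27.7 TPM) did with Gja1 (24.9 TPM). Kpna6-/- testes kept the WT order, with overlaps between Cldn3 and Cldn11 and between Cdh2 and Gja1.

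The genes most like each member were sought by Pearson correlation of TMM log2 CPM over the 9 samples among 11680 genes with at least 5 TPM. These correlations are descriptions, since the 9 samples share 3 genotypes and a difference of 1 genotype sets most of them. For Cldn3 the nearest were Odf1 (0.997), a gene of the outer dense fibres of the sperm tail, Eef1g (0.997), a translation elongation factor gene, and Smcp (0.997), a gene of the sperm mitochondrial capsule. Odf1 was at 1826, 1937 and 1959 TPM in WT and at 1531, 1564 and 1496 TPM in Kpna6ΔIBB/ΔIBB testes. For Cldn11 they were Lgmn (0.996), a lysosomal protease gene, Nedd4 (0.995), a ubiquitin ligase gene, and Ywhab (0.992). Lgmn was at 26.4, 24.3 and 24.3 TPM in WT and at 48.8, 48.0 and 40.1 TPM in Kpna6ΔIBB/ΔIBB testes. F11r was nearest to Slc20a2 (0.993), Tjp1 to Aftph (0.973), Cdh2 to Ncapd3 (0.949), Gja1 to Gm14276 (0.936) and Cldn5 to Chchd5 (0.886), while Ocln lay below 5 TPM. Cldn3 itself correlated at -0.93 with Cldn11, at -0.92 with F11r and at 0.79 with Tjp1 over the 9 samples.

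The neighbourhood of Cldn3 was read as well, with a window of 100 kb on each side that was added after the values of the 8 genes were seen. Of 9 neighbouring genes tested, 4 were higher and 0 lower in Kpna6ΔIBB/ΔIBB than in WT testes. Over all genes tested 17.7% were higher and 18.9% lower. The 4 higher neighbours were Stx1a (log2 fold change 1.00, adjusted P = 0.000202), Mettl27 (0.81, adjusted P = 0.00216), Vps37d (0.98, adjusted P = 0.0352) and Cldn4. Vps37d and Cldn4 lay low, at 0.690 and 0.126 TPM in WT and at 1.49 and 0.414 TPM in Kpna6ΔIBB/ΔIBB testes. Cldn13, another claudin gene of the cluster, was at 7.10 TPM in WT and 7.16 TPM in Kpna6ΔIBB/ΔIBB testes (-0.12, adjusted P = 0.513). None of the 9 neighbours was thus called lower with Cldn3 at this threshold, and a cause common to the region was not tested.

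Among the 28 other tight junction genes, 6 rose and 6 fell in Kpna6ΔIBB/ΔIBB against WT testes, with a median log2 fold change of 0.04. Over all genes tested 17.7% rose and 18.9% fell, so the list is described here and not set apart from other genes. Those that rose were Lsr, a gene of tricellular junctions (from 14.3 to 28.5 TPM, log2 fold change 0.87 ± 0.07, SE), the polarity gene Pard6b (from 3.60 to 6.79 TPM, 0.79 ± 0.12), Cgn, the gene of cingulin (from 23.1 to 37.2 TPM, 0.59 ± 0.06), Prkci, Jam2 and Amot. Among those that fell were the atypical protein kinase C gene Prkcz (from 43.9 to 22.8 TPM, -0.48 ± 0.08), Amotl1 (from 21.6 to 17.2 TPM, -0.44 ± 0.06), Patj (from 20.0 to 13.7 TPM, -0.37 ± 0.08), Magi1 and Mpp5. The genes of the 2 atypical protein kinases C, Prkci and Prkcz, thus moved in opposite directions. For Prkcz the fall in TPM was larger than that on counts. Under the 16 alternatives its log2 fold change ranged from -1.07 to -0.36, and each kept the call. In Kpna6-/- against WT testes 0 of the 28 genes passed.

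Of 10 desmosome genes 8 were tested, and Pkp1 and Dsg1a fell while 0 rose. Dsg1a, a desmosomal cadherin gene, went from 15.4 to 10.95 TPM (log2 fold change -0.62 ± 0.11, SE). Pkp1, a plakophilin gene, went from 2.77 to 1.24 TPM (-1.03 ± 0.12), but its value was 0.06 over protein-coding transcripts only (adjusted P = 0.871). Of 20 tested genes known to regulate the barrier, 8 rose and 3 fell, with a median log2 fold change of 0.24. Mmp9, a matrix metalloprotease gene (0.98 ± 0.30), Tgfb3, a cytokine gene (0.49 ± 0.10), and Gata4, a transcription factor gene (0.46 ± 0.07), rose most. The call of Mmp9 was lost with DESeq2 and without replicate 1 or 2 of WT or of Kpna6ΔIBB/ΔIBB (adjusted P of 0.0560 to 0.0984). Ptk2, the gene of focal adhesion kinase (-0.33 ± 0.05), Rptor (-0.32 ± 0.05) and Mtor (-0.21 ± 0.04) fell.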

How the data were processed

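Polyadenylated RNA of 9 whole testes was sequenced in paired ends. The authors deposited, for each of 96626 transcripts, an estimated count that is not normalized between samples and a TPM value scaled to the same total in each library. The submitters' processing notes name kallisto 0.45 and mm10, while the annotation release behind the transcripts was not given in the sources used here. Here 95301 transcripts were assigned to genes with GENCODE M21 (GRCm38), and both values were summed per gene. After rounding of the sums, low genes were removed by filterByExpr, TMM factors were computed, and edgeR 4.0.16 (R 4.3.3, quasi-likelihood) was run on the 6 samples of each comparison, with Benjamini-Hochberg adjustment across the whole table. Ratios of 2 claudins were log2 ratios of TPM without a pseudocount, and levels relative to Sertoli cell markers used log2(TPM + 1). Both were tested by exact permutation, whose smallest P-value is 0.00357 over 3 genotypes and 0.1 for a pair. The sleuth package of the study was not used. Between 99.54% and 99.56% of a sample's estimated counts fell on genes.

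Alternatives were DESeq2 1.42.0, limma 3.58.1 on log2(TPM + 1) or log2(TPM + 0.1), other filters, library size scaling, length-scaled counts, protein-coding transcripts only, all 9 samples in 1 fit, the replicate number as a block and each sample left out. On data simulated for Kpna6ΔIBB/ΔIBB against WT with 15266 genes, edgeR recovered 80 of 100 genes changed by 1.5-fold and 100 of 100 changed by 2-fold, with 11 false calls among 191. The simulation left out genes with low WT counts, gave every gene the same spread and changed few genes, equally up and down. It therefore does not bear on calls that depend on the scaling. Shared sequence was sought with blastn 2.17.0+ at 95% identity over 100 bases or more, and none of the 8 genes had such a match except Gja1, with 105 bases of Glcci1. Promoters come from RefSeq tables on GRCm38.p6.

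The 8 genes, the lists and the tests were chosen with earlier results of these data known. All 8 genes are named in every comparison. Other claudins and connexins are named from a mean of 1 TPM in a genotype, and from each other list up to 3 genes per direction with the largest change that passed. A few genes of these lists are not reported here by name. Neither the labels nor the methods say that samples came from littermates, so P-values measure the spread between these testes.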

Additional observations from a re-analysis of the deposited data

Results flagged for a closer look

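The changes of 4 junction genes differed between the mutant lines, as tested directly with edgeR in Kpna6ΔIBB/ΔIBB against Kpna6-/- testes, where 30.3% of 18752 genes were called. The log2 fold change was -0.83 for Cldn3, 0.46 for Cldn11, 0.52 for F11r and 0.26 for Ocln. For Cldn3 all 3 Kpna6ΔIBB/ΔIBB samples were lower than all 3 Kpna6-/- samples, and for Cldn11 all 3 were higher. For F11r 2 of 3 Kpna6ΔIBB/ΔIBB samples were above every Kpna6-/- sample in TPM. For Ocln the adjusted P-value was 0.0394, and it lay between 0.0544 and 0.105 with any 1 sample left out.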

How the results depend on the processing

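Cldn3 and Cldn11 kept their direction and passed in Kpna6ΔIBB/ΔIBB against WT under all 16 alternatives of that comparison (log2 fold changes of -0.81 to -0.62 and 0.50 to 0.69), as F11r did (0.55 to 0.71), and both log2 ratios of Cldn3 passed under all 12. Causes of the changes below were not tested. Of 8 junction genes, 3 passed in that comparison with limma on either pseudocount and with length-scaled counts, and 2 passed in Kpna6ΔIBB/ΔIBB against Kpna6-/- with limma. The genes called in Kpna6-/- against WT, 299 in all, numbered 624 without a filter, 24 and 28 with limma on log2(TPM + 1) and log2(TPM + 0.1), 71 with length-scaled counts and 92 to 518 with 1 sample left out. Without replicates 1, 2 and 3 of WT there were 518, 135 and 145, and without those of Kpna6-/- 92, 113 and 180.

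Ocln did not pass against WT with limma (0.23 and 0.29) or length-scaled counts (0.15). Against Kpna6-/- it did not pass with DESeq2 (0.27), no filter (0.27), limma (0.18 and 0.22), length-scaled counts (0.091) or 1 sample left out (0.25 to 0.28). Tjp1 against WT missed the threshold with library size scaling (-0.061), length-scaled counts (-0.079) and in 4 of 6 leave-one-out fits (-0.20 to -0.14), and turned with limma (0.035 and 0.036). It turned in Kpna6-/- against WT with limma (0.045 and 0.046) and length-scaled counts (0.056), and passed between the mutant lines with length-scaled counts (-0.14). F11r missed the threshold between the mutant lines with limma (0.65 and 0.70) and length-scaled counts (0.55). Gja1 passed with library size scaling against WT (0.21) and between the lines (0.26, and 0.11 to 0.23 with 1 sample left out, passing without replicate 1 of Kpna6-/-), and Cdh2 between the lines (0.18). Cdh2 ranged from -0.022 to 0.082 against WT and from -0.11 to 0.0001 in Kpna6-/- against WT with 1 sample left out. Cldn5 between the lines turned with library size scaling (0.037), limma (0.075 and 0.084) and 1 sample left out (-0.11 to 0.0044). Relative to Sertoli cell markers, Cldn11 passed with counts (-0.079) and a pseudocount of 0.1 (-0.11), Ocln passed with counts (-0.28) and ranged from -0.62 to -0.34 with 1 sample left out, and F11r ranged from -0.16 to 0.028.

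The following genes changed sign against WT with library size scaling, limma on log2(TPM + 1) and limma on log2(TPM + 0.1), in that order: Cldn34b2 (0.081, 0.10 and 0.11), Cldn34b4 (0.021, 0.041 and 0.042) and Cldn34c4 (0.026, 0.057 and 0.060). With 1 sample left out they ranged from -0.088 to 0.039, -0.18 to 0.015 and -0.14 to 0.032. With the 2 limma fits, Cldn13 (0.0073 and 0.0077), Gjd3 (0.0042 and 0.0049) and Flt1 (0.22 and 0.29, and 0.28 with length-scaled counts) did so too, as Pkp1 did with protein-coding transcripts only (0.061). Other calls against WT were kept under only some of the 16 alternatives: Flt1 under 3, Cd68 and Epcam under 9, Kit under 10, Mmp9, Egfl7, Hsd3b1 and Sycp2 under 11, Eng, Lhcgr, Spo11 and Spink8 under 12, C1qa, Vwf, Patj, Jup and Rptor under 13, Amotl1, Ptk2, Mtor and Gfra1 under 14, and Crisp1 under 9 of 15.

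The replicate numbers do not pair the samples, since same-numbered samples correlated at -0.0558 to 0.0780 in their deviations from the group means. With the replicate number as a block, 6793 genes passed against WT, 229 in Kpna6-/- against WT and 6032 between the lines, in place of 6874, 299 and 5673. Ocln then missed the threshold between the lines (0.27) and Tjp1 passed (-0.11). Against WT, Cldn7 passed with the block (0.79, adjusted P = 0.0358) and Flt1 did not (-0.33, adjusted P = 0.0592), and no other call of a named gene moved with it. Cldn4 and Gjb2 lay below 1 TPM in every group, which limits the precision of their values.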

Other observations

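Markers of other cells of the testis that stand in no comparison of the junction genes were also read in Kpna6ΔIBB/ΔIBB against WT testes. Of 7 macrophage markers, 3 rose (C1qa, Cd68 and Mrc1) and 0 fell, with summed levels of 26.0 to 32.6 TPM in WT and 41.0 to 46.0 TPM in Kpna6ΔIBB/ΔIBB samples. Of 6 Leydig cell markers, Hsd3b1, a steroid dehydrogenase gene, and Lhcgr, the luteinizing hormone receptor gene, rose, and 0 fell. In replicate 2 of WT, Star, Cyp11a1, Cyp17a1 and Lhcgr were lower than in every other sample (7.95, 44.8, 79.3 and 1.62 TPM). Hsd3b1 (52.0 TPM) was the highest of the WT values in that replicate, and Insl3 (1778 TPM) the lowest. With 1 sample left out the log2 fold change of Lhcgr ranged from 0.60 to 1.32, beside 0.91 with all samples. Of 6 spermatogonium markers, Dmrt1, Kit and Uchl1 rose, and Gfra1, a receptor gene of early spermatogonia, fell. Of 6 spermatocyte markers, Dmc1 rose and Sycp2 and Spo11, a gene of meiotic double-strand breaks, fell. Of 8 epididymis and rete testis markers tested, Crisp1 and Spink8 rose and Epcam fell. Crisp1 was at 77.0 TPM and Spink8 at 81.3 TPM in replicate 3 of Kpna6ΔIBB/ΔIBB, whereas the other 8 samples lay at or below 4.23 and 10.7 TPM. Without that sample the log2 fold change was 2.13 for Crisp1 (edgeR, adjusted P = 0.0510) and 1.32 for Spink8 (adjusted P = 0.0337), in place of 6.73 and 3.73. Many of these calls depended on the processing: Mrc1, Dmrt1, Uchl1 and Dmc1 kept theirs under all 16 alternatives, Cd68 and Epcam under 9 and Kit under 10.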
